A study of Mus musculus with 9 samples.

Results

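The 40 genes described here carry out DNA replication and mitosis. They were taken from the array by gene symbol: each member is the set of probe sets that the array annotation gives to its symbol. Signals played no part in assigning probe sets to a symbol, but members were chosen with earlier results of these data known. The annotation listed probe sets for 39 of the 40, 86 probe sets in all, among 18193 named genes. Ccnb1 was not listed with a probe set and was not analysed here. Of the 39 genes, 36 passed a filter on low signal and were tested: 21 of the 23 replication genes and 15 of the 17 mitosis genes.

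The arrays measured mRNA in skin of C57BL/6 mice 6 h after a compound was put on the ear. Each of 3 groups had 3 arrays: DNFB (dinitrofluorobenzene), described by the submitters as an allergen, BAC (benzalkonium chloride), described as an irritant, and a vehicle of acetone and olive oil. Compounds were put on right ears and vehicle on left ears, so side and treatment cannot be told apart. The labels state neither doses nor ages, and do not say that replicates came from separate mice, so the p-values speak to the spread between these samples and that spread may be technical.

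Before a cell divides, each origin of replication is licensed when the loading factors Cdc6 and Cdt1 place the ring-shaped MCM helicase on DNA. In S phase the helicase is activated by Cdc45 and the GINS complex, DNA polymerases follow on the sliding clamp Pcna, and the pieces of the lagging strand are trimmed by Fen1 and joined by Lig1. Cyclin B with Cdk1 then starts mitosis, the spindle pulls the chromosomes apart, and the anaphase-promoting complex with Cdc20 ends it. In skin, division is known chiefly from the basal layer of the epidermis and the matrix of growing hair follicles.

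Each array gave 1 MAS5 signal per probe set, on a linear scale. Array medians lay between 71.2 and 86.3, and the 40th percentile, which a gene had to exceed in at least 3 of the 9 arrays to be tested, between 46.2 and 60.7. The labelled tissue was checked on keratins of the epidermis: Krt14 lay between 7501 and 11114 and Krt10 between 18972 and 31242. Gapdh control probes at the 3' end read 1.36 times those at the 5' end in DNFB replicate 2 and 0.841 to 0.943 times in the other 8 arrays. Of 7 basal keratinocyte markers, 4 were lower after DNFB and 2 after BAC, with summed signals from 32817 to 33248 in the vehicle arrays, 22542 to 26219 after DNFB and 26833 to 31327 after BAC. Summed signals of 10 hair follicle matrix markers ran from 1237 to 1908, 783 to 1978 and 736 to 1775 in the same order. Against the vehicle, limma called 0 of 8 tested matrix markers, with 2 and 1 at an unadjusted p under 0.05. The median log2 change of these 8 was -0.02 after DNFB and -0.51 after BAC, with 4 and 6 below 0. Of 5 tested neutrophil markers, 4 were higher after DNFB and 5 after BAC, and the sum of the 5 ran from 1094 to 5596, 10611 to 20204 and 18931 to 27590. Of 5 suprabasal keratinocyte markers, 2 were lower after DNFB and 3 after BAC, and 0 were higher. Their median log2 changes were -0.61 and -0.65, beside -0.42 and -0.24 for the basal markers, and their summed signals overlapped between groups. Higher after DNFB were also 4 of 6 monocyte and macrophage, 3 of 6 skeletal muscle, 2 of 5 endothelial and 1 of 6 fibroblast markers. Lower after DNFB were 3 of 5 sebocyte markers and 1 of 3 tested T cell markers. After BAC, 4 of 6 monocyte and macrophage and 1 of 5 endothelial markers were higher. The part of all these shifts in the results was not tested. In whole tissue, fewer cells of a type and less RNA per cell cannot be told apart.

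Short sequences were counted in the promoters of both classes. RefSeq windows of 300 bases (GRCm38.p6), from 250 before to 50 after the start of transcription, were available for 33 of the 40 genes, Ccnb1 included. The following motifs were searched on both strands: the E2F letters TTTCCCGC, TTTCGCGC, TTTGCCGC and TTTGGCGC, named for the E2F factors that switch on S-phase genes; the CHR letters TTTGAA, known from genes of late cell cycle; and CCAAT. E2F letters stood in 9 of 19 replication windows (47.4%), in 1 of 14 mitosis windows (7.14%) and in 2.61% of all 27018 genes with a window. CHR letters stood in 3 of 19 (15.8%), 10 of 14 (71.4%) and 20.2% in the same order, and CCAAT in 12 of 19 (63.2%), 12 of 14 (85.7%) and 41.1%. In the 250 bases before the start alone, E2F letters stood in 6 replication windows and 2.16% of all genes, CHR letters in 7 mitosis windows and 18.3%, and CCAAT in 37.5% of all genes; the window was widened after these shares had been seen. Matches overlapped in Mcm5 and Mcm6, where 2 E2F matches share 4 bases, in Mcm7, where an E2F and a CCAAT match share 1, and in Ube2c, where 2 CCAAT matches share 2. A match describes letters only, and a gene with several listed starts was counted where any of its windows matched.

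The 250 bases before the start are shown for the 4 genes that were higher after DNFB than after BAC, Cdt1 (chr8:122567765-122568014, plus strand), Pcna (chr2:132253181-132253430, minus strand), Mcm5 (chr8:75109259-75109508, plus strand) and Mcm7 (chr5:138171884-138172133, minus strand, the upstream one of its listed starts). Cdc20 (chr4:118437344-118437593, minus strand) is shown as a mitosis gene for contrast. Capitals mark E2F letters in the first 4 and CHR letters in Cdc20, and the genes and motifs were chosen after values had been seen. Each is written 5′ to 3′ on the strand of its gene.
Cdt1: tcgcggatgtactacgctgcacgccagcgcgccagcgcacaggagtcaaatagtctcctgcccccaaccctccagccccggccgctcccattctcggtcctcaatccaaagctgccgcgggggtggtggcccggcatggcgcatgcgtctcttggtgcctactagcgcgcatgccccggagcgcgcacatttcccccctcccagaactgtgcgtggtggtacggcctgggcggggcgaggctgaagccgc
Pcna: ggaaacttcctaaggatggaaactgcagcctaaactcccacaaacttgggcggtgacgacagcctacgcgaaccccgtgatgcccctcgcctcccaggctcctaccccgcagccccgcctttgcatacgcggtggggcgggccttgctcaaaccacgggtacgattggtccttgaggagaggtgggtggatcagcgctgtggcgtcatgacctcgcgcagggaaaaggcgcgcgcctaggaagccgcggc
Mcm5: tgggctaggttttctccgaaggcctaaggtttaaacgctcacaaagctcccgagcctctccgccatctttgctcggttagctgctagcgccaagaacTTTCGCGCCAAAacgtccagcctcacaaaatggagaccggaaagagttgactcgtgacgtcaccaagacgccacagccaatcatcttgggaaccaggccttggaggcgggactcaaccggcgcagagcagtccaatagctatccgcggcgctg
Mcm7: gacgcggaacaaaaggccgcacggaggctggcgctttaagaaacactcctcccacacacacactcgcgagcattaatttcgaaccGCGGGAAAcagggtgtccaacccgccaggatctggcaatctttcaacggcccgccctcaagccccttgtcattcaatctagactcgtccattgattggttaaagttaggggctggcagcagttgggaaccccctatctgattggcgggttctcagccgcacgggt
Cdc20: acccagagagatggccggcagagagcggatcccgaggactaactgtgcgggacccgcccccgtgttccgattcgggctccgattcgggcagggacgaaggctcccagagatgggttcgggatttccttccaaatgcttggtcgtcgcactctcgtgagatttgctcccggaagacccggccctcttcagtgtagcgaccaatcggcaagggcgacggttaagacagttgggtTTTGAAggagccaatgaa
Counted from the start of transcription, the capitals begin at base -153 in Mcm5, at -165 in Mcm7 and at -18 in Cdc20. The E2F letters of Cdt1 begin at base 33, past the stretch shown. No E2F letters stand in the window of Pcna or in that of the other listed start of Mcm7.

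DNFB was set against the vehicle to ask how replication and mitosis genes stood after the allergen. Cdt1, which loads the helicase, and Pcna, the sliding clamp, rose, and Fen1, the flap nuclease of the lagging strand, fell. No mitosis gene was called. The count was 2 higher and 1 lower of 36, or 8.33%, where called means a limma p under 0.05 after Benjamini-Hochberg adjustment over all 14122 tested genes. Over all those genes 13.8% were called, 6.76% higher and 7.08% lower, and the difference from the share among these members was not tested. Their median log2 change was -0.02, beside 0.00 over all genes, and 8 of 36 (22.2%) had an unadjusted limma p under 0.05, beside 26.3%. With DNFB higher, arrays of both groups did not overlap for 4 of 36 members (11.1%), beside 15.2% of all genes. With DNFB lower, they did not overlap for 5 (13.9%), beside 15.6%.

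**Figure D1:**
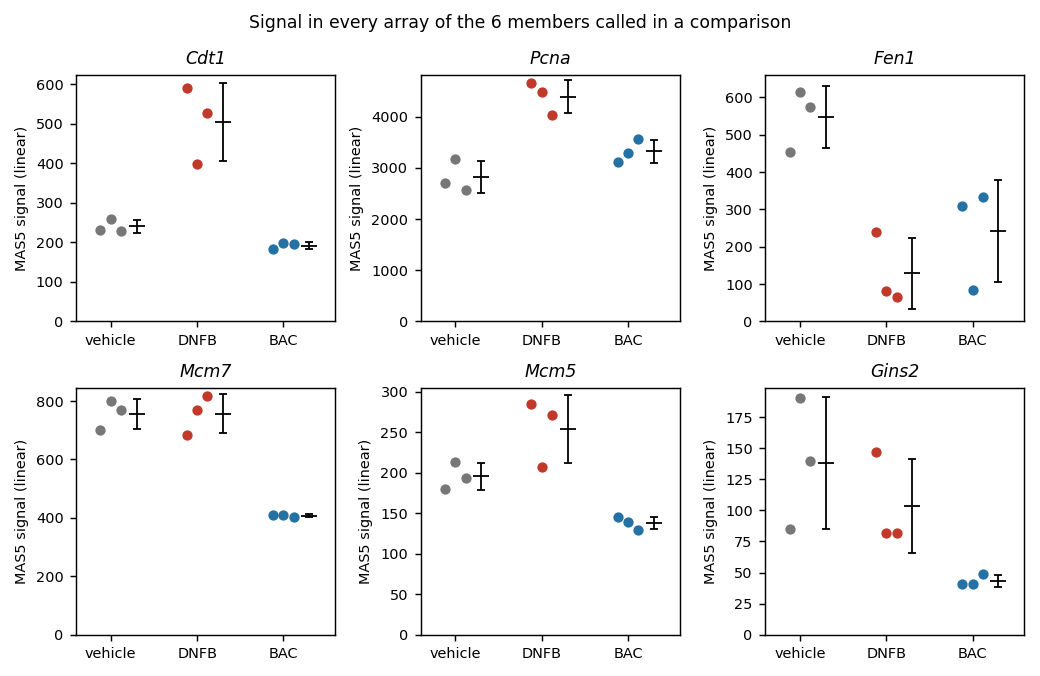
MAS5 signal (linear, from 0) of Cdt1, Pcna, Fen1, Mcm7, Mcm5 and Gins2 in each array (points) by group, with the mean and SD of the 3 arrays (black). The DNFB arrays lie above all others for Cdt1 and Pcna, and the BAC arrays lie below all others for Mcm7, Mcm5 and Gins2.

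BAC was set against the same vehicle arrays to ask the same of the irritant. Mcm7, a subunit of the helicase ring, and Gins2, a subunit of the GINS complex that activates it, fell, and no member rose. The count was 0 higher and 2 lower of 36 (5.56%), beside 14.2% over all tested genes (6.59% higher, 7.64% lower), and 9 of 36 (25%) had an unadjusted limma p under 0.05, beside 27.7%. With each array centred on its median, 34% of all calls were higher in place of 46.3%. The log2 change was below 0 for 28 of 36 members (77.8%), beside 53.4% of all genes, with a median of -0.27 beside -0.03. Arrays of both groups did not overlap, with BAC lower, for 11 of 36 members (30.6%), beside 19.2% of all genes, and with BAC higher for 0, beside 14.9%.

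The direct comparison of DNFB with BAC asked where the compounds differed. Cdt1, Mcm7, Mcm5 and Pcna were higher after DNFB, and no member was lower. The count was 4 of 36 (11.1%), beside 6.8% over all tested genes (3.14% higher, 3.66% lower), and 8 of 36 (22.2%) had an unadjusted limma p under 0.05, beside 21.6%. The median change was 0.17, beside 0.03. Arrays did not overlap, with DNFB higher, for 10 members (27.8%), beside 13.7% of all genes, and with DNFB lower for Aurkb alone (2.78%), beside 11.4%. Both comparisons with the vehicle use the same 3 vehicle arrays.

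**Figure D2:**
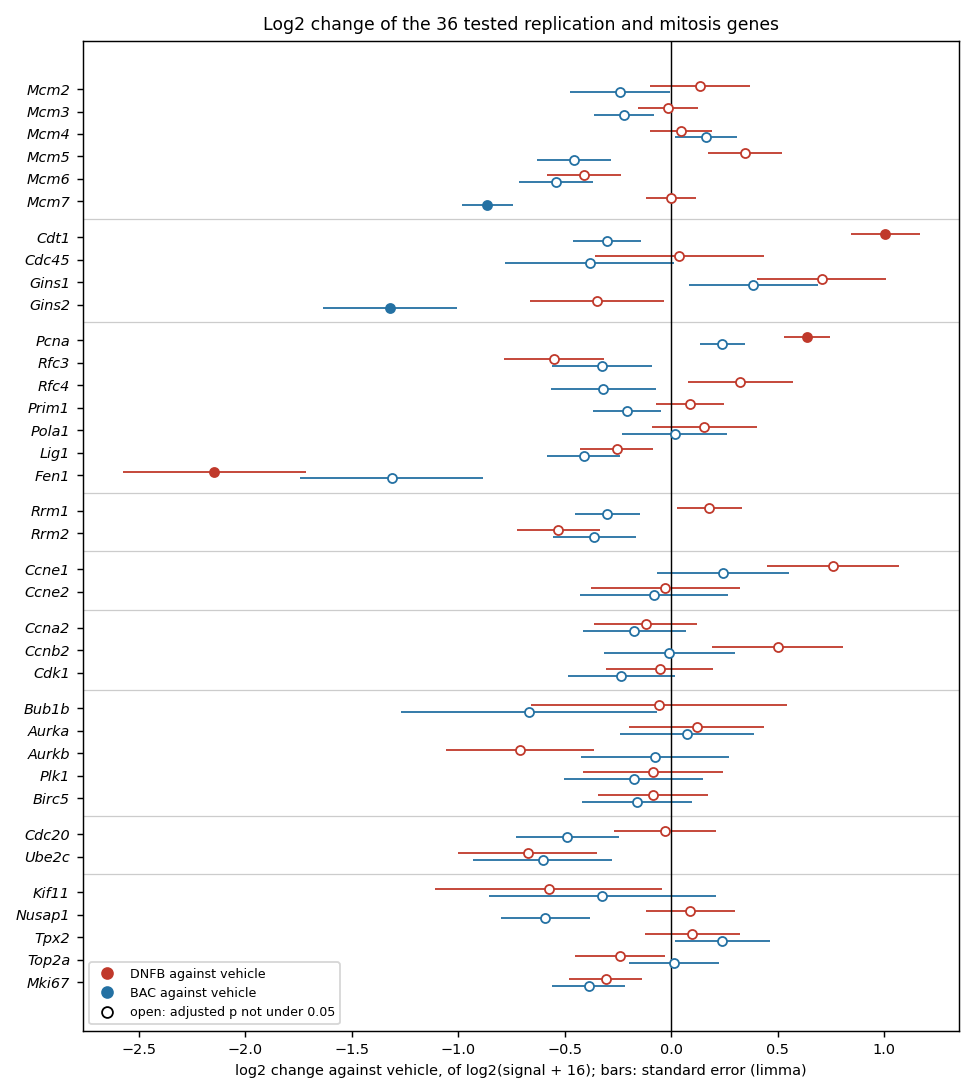
Log2 change of log2(signal + 16) against the vehicle for the 36 tested members, grouped by role (lines), with the limma standard error; filled points have an adjusted p under 0.05. Cdt1 and Pcna are filled on the right for DNFB, Fen1 on the left, and Mcm7 and Gins2 are filled on the left for BAC; 28 of the 36 BAC points lie left of 0.

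Among the origin licensing and activation genes, Cdt1 stood at 232, 260 and 230 in the vehicle arrays, at 591, 397 and 526 after DNFB and at 182, 198 and 196 after BAC. Every DNFB array lay above every other array, and every BAC array below every vehicle array. The DNFB mean was 505 ± 98.4 (SD, n = 3) against 241 ± 17.0 in the vehicle, 2.1 times, a log2 change of 1.01 ± 0.16 (SE; limma adjusted p = 0.000545). Against BAC it was 2.63 times, a log2 change of 1.31 ± 0.16 (limma adjusted p = 0.000112), and BAC against the vehicle, at -0.30, was not called (limma adjusted p = 0.242). A second Cdt1 probe set stood at 120, 190 and 126, at 251, 193 and 263, and at 99.3, 103 and 80.0. It was called between the compounds (log2 change 1.18, limma adjusted p = 0.00515 in a fit of every probe set) and not for DNFB against the vehicle (0.65, limma adjusted p = 0.0749). Averaged over all its probe sets, Cdt1 changed by 0.61 against the vehicle, which was not called (limma adjusted p = 0.0535).

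Gins2 stood at 84.7, 190 and 140 in the vehicle arrays, at 147, 81.7 and 82.2 after DNFB and at 40.4, 40.6 and 49.0 after BAC. The BAC arrays lay below all others, and the DNFB and vehicle arrays overlapped. All 3 BAC arrays were under the 40th percentile of their array, so the size of the fall is uncertain; the fitted log2 change was -1.32 ± 0.32 (limma adjusted p = 0.0109). The second Gins2 probe set went the other way and was not called: it stood at 64.1, 67.8 and 79.1, at 115, 59.5 and 95.8, and at 88.7, 86.5 and 62.6, a log2 change of 0.13 after BAC. Without vehicle replicate 2, this second probe set has the higher mean and stands for the gene, with a change of 0.11 (limma adjusted p = 0.883), and the mean of both changed by -0.59 (adjusted p = 0.137). The call was made for 1 of the 2 Gins2 probe sets.

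Gins1, another GINS subunit, was not called, at 0.71 ± 0.30 after DNFB and 0.39 after BAC, and its DNFB arrays (74.2, 98.1 and 121) lay above its vehicle arrays (59.7, 58.2 and 42.0). Cdc45 was not called either, with changes of 0.04 and -0.38, and exceeded the filter in 4 arrays. Cdc6, the other loading factor, exceeded the filter in 2 arrays and was not tested: it stood at 24.9, 39.8 and 22.6 in the vehicle arrays, at 63.5, 50.3 and 47.5 after DNFB and at 27.1, 4.53 and 5.17 after BAC. Its DNFB arrays lay above all others. No vehicle or BAC array exceeded the 40th percentile, so no size is given; with no filter the limma adjusted p between the compounds was 0.0482 among genes and 0.0827 among probe sets.

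Of the MCM helicase subunits, Mcm7 stood at 700, 800 and 768 in the vehicle arrays, at 685, 769 and 817 after DNFB and at 411, 409 and 404 after BAC. The 3 BAC arrays lay together below all others, and the DNFB arrays spanned the vehicle arrays. BAC was at 0.539 times the vehicle mean, a log2 change of -0.86 ± 0.12 (limma adjusted p = 0.000136), and DNFB was 1.86 times BAC (adjusted p = 0.000291). The DNFB change against the vehicle was 0.00 ± 0.12. The other 3 Mcm7 probe sets changed by -0.38, -1.06 and -0.33 after BAC and none was called (limma adjusted p of 0.204, 0.0601 and 0.401 among probe sets).

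Mcm5 stood at 180, 213 and 193 in the vehicle arrays, at 285, 207 and 272 after DNFB and at 145, 140 and 129 after BAC. Its BAC arrays lay below all others, while DNFB replicate 2 lay among the vehicle arrays. DNFB was 1.84 times BAC, a log2 difference of 0.80 ± 0.18 (limma adjusted p = 0.0121). Against the vehicle neither compound was called, at 0.35 for DNFB (adjusted p = 0.227) and -0.46 for BAC (adjusted p = 0.0997). The call was lost without DNFB replicate 3 (0.75, limma adjusted p = 0.0555) and when its probe sets were averaged (0.15, adjusted p = 0.74), and its other tested probe set was not called (0.35, adjusted p = 0.44).

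Mcm6 was just outside the threshold after BAC. It stood at 424, 424 and 445 in the vehicle arrays, at 237, 365 and 379 after DNFB and at 287, 337 and 255 after BAC, so the vehicle arrays lay above all others. The log2 change was -0.54 ± 0.17 after BAC (limma adjusted p = 0.0504) and -0.41 after DNFB (adjusted p = 0.145). A second Mcm6 probe set was called lower after DNFB among probe sets (-0.69, limma adjusted p = 0.0448). Mcm2, Mcm3 and Mcm4 were not called in any comparison, with changes against the vehicle from -0.24 to 0.16. For the 6 subunits together the median change was 0.02 after DNFB and -0.35 after BAC.

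**Figure D3:**
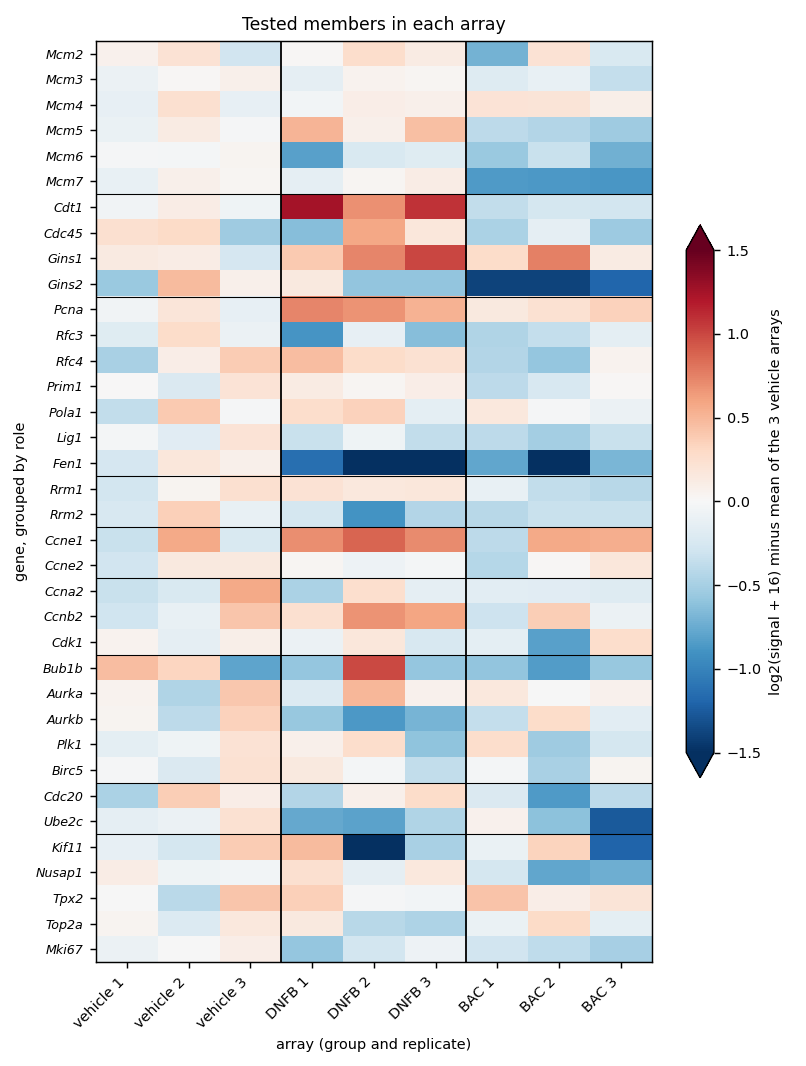
Each tested member (rows, grouped by role) in each of the 9 arrays (columns), as log2(signal + 16) minus the mean of the 3 vehicle arrays; blue is lower, red higher, and colours saturate at 1.5. The BAC columns are mostly blue in the upper, replication rows, and the Cdt1 and Pcna rows are red in the DNFB columns. The log2 change after BAC is below 0 for 16 of 21 replication members and 12 of 15 mitosis members.

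At the replication fork, Pcna stood at 2712, 3183 and 2572 in the vehicle arrays, at 4662, 4477 and 4033 after DNFB and at 3120, 3300 and 3564 after BAC. The DNFB arrays lay above all others, and the BAC and vehicle arrays overlapped. DNFB was 1.56 times the vehicle, a log2 change of 0.64 ± 0.11 (limma adjusted p = 0.000845). Against BAC it was 1.32 times, 0.40 ± 0.11 (limma adjusted p = 0.0369). This difference was called under 10 of 19 alternative settings, with adjusted p between 0.0231 and 0.133, and the call was lost without vehicle replicate 1, DNFB replicate 1 or 2, or BAC replicate 1 or 2. BAC against the vehicle was not called (0.24, limma adjusted p = 0.158).

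Fen1 stood at 454, 615 and 574 in the vehicle arrays, at 239, 80.7 and 65.6 after DNFB and at 310, 84.4 and 332 after BAC. All vehicle arrays lay above all others, and the spread within both treated groups was wide. DNFB was at 0.235 times the vehicle, a log2 change of -2.15 ± 0.43 (limma adjusted p = 0.00317). Without DNFB replicate 2, the array with the high Gapdh ratio, it was -1.95 (limma adjusted p = 0.0207); Cdt1 and Pcna also kept their calls without that array, at 1.16 and 0.62 (limma adjusted p of 0.000356 and 0.00487). The second Fen1 probe set stood at 204, 274 and 186, at 115, 131 and 65.2, and at 146, 102 and 123, and was also lower after DNFB (-1.01, limma adjusted p = 0.0165 among probe sets). After BAC the change of -1.31 was just outside the threshold (limma adjusted p = 0.0536).

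The other fork genes were not called. Lig1, the ligase that seals the lagging strand, changed by -0.26 after DNFB and -0.41 after BAC, and its BAC arrays lay below its vehicle arrays. The clamp loader subunits Rfc3 and Rfc4 changed by -0.55 and 0.32 after DNFB and by -0.32 in both cases after BAC. A second Rfc3 probe set went the other way after DNFB and was not called: it stood at 121, 109 and 105 in the vehicle arrays and at 164, 179 and 125 after DNFB, a change of 0.42, and was 0.84 higher after DNFB than after BAC (limma adjusted p = 0.0519 among probe sets). Prim1 and Pola1, of the primase and polymerase alpha, changed by 0.09 and 0.15 after DNFB and by -0.21 and 0.02 after BAC.

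The suppliers of deoxynucleotides were not called. Rrm1 and Rrm2, the large and small subunits of ribonucleotide reductase, changed by 0.18 and -0.53 after DNFB (limma adjusted p of 0.516 and 0.088) and by -0.30 and -0.36 after BAC. Tyms, thymidylate synthase, was below the filter in its own probe sets. A further probe set, which the annotation gives to both Tyms and the pseudogene Tyms-ps, stood at 155, 185 and 133, at 145, 103 and 109, and at 120, 229 and 181, and was not called.

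The cyclin E genes open S phase with Cdk2. Ccne1 was at 57.7, 121 and 63.4 in the vehicle arrays, at 135, 154 and 136 after DNFB and at 54.8, 122 and 120 after BAC. Its DNFB arrays lay above all others, and the change of 0.76 ± 0.31 was not called (limma adjusted p = 0.126). A second Ccne1 probe set exceeded the filter in 2 arrays: it stood at 9.19, 10.9 and 7.18 in the vehicle arrays, at 49.1, 80.4 and 49.1 after DNFB and at 42.5, 54.7 and 57.8 after BAC. All its treated arrays lay above all its vehicle arrays. No vehicle array exceeded the 40th percentile there, so no size is given. With no filter its limma adjusted p among probe sets was 0.0175 after DNFB and 0.0308 after BAC. As a gene, Ccne1 was called higher after DNFB under 2 of 19 alternative settings: with its probe sets averaged and without vehicle replicate 2. Ccne2 changed by -0.03 and -0.08.

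**Figure D4:**
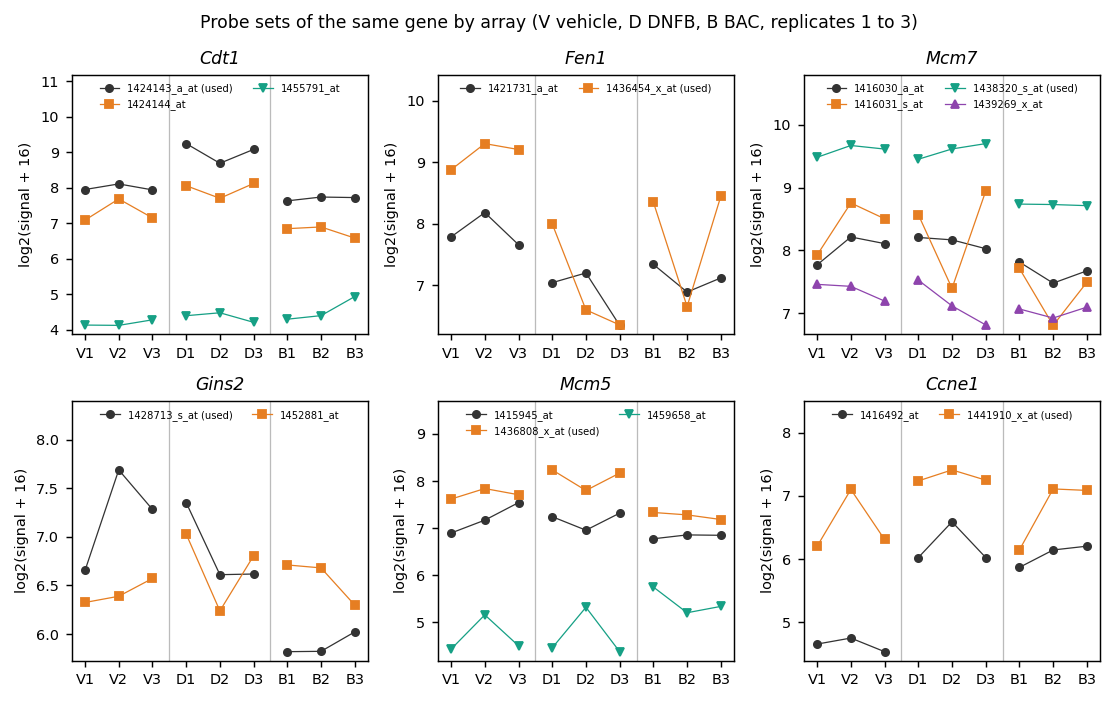
Log2(signal + 16) of each probe set of Cdt1, Fen1, Mcm7, Gins2, Mcm5 and Ccne1 in each array (V vehicle, D DNFB, B BAC, replicates 1 to 3); the probe set that stands for the gene is named as used. The 2 Gins2 probe sets part in the BAC arrays, the 2 Fen1 probe sets are both lower in the DNFB arrays, and the dimmer Ccne1 probe set is lowest in the vehicle arrays.

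The mitosis genes were called in no comparison: limma gave 0 of 15, with 0, 2 and 1 at an unadjusted p under 0.05 for DNFB against the vehicle, BAC against the vehicle and DNFB against BAC. Among replication genes 3, 2 and 4 of 21 were called (14.3%, 9.52% and 19%), beside 13.8%, 14.2% and 6.8% of all tested genes. The difference between both classes was not tested. Median changes of the mitosis genes were -0.09 after DNFB and -0.18 after BAC, beside 0.05 and -0.30 for the replication genes. After DNFB the change was below 0 for 73.3% of mitosis and 38.1% of replication genes, beside 49.7% of all tested genes. After BAC these shares were 80% and 76.2%, beside 53.4%.

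Mki67, which codes for the Ki-67 protein used to stain dividing cells, stood at 235, 251 and 271 in the vehicle arrays, at 164, 205 and 239 after DNFB and at 204, 190 and 174 after BAC. Its BAC arrays lay below its vehicle arrays and its DNFB arrays overlapped them. The changes were -0.31 ± 0.17 and -0.39 ± 0.17 (limma adjusted p of 0.28 and 0.156). Nusap1, which binds spindle microtubules, was at 174, 153 and 155, at 193, 145 and 181, and at 131, 87.2 and 90.0. Its BAC arrays lay below all others, with a change of -0.59 (limma adjusted p = 0.0737). Between the compounds Nusap1 was 0.68 higher after DNFB (limma adjusted p = 0.0642). Each of these 2 comparisons was called for Nusap1 under 2 of 19 alternative settings. Top2a, the topoisomerase that untangles sister chromosomes, changed by -0.24 and 0.01, Tpx2, an activator of Aurka at the spindle, by 0.10 and 0.24, and Kif11, the motor that separates the spindle poles, by -0.58 and -0.32, none called.

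The starters of mitosis were also not called. Cdk1 changed by -0.05 after DNFB and -0.23 after BAC, Ccna2 by -0.12 and -0.17, and Ccnb2 by 0.50 and -0.01. Cdc20, which directs the anaphase-promoting complex, changed by -0.03 and -0.49. A second Cdc20 probe set, at 248, 209 and 293 in the vehicle arrays, 181, 181 and 249 after DNFB and 157, 141 and 162 after BAC, was called lower after BAC among probe sets (-0.64, limma adjusted p = 0.0435). Ube2c, the ubiquitin-conjugating enzyme of the complex, changed by -0.67 and -0.60, and its DNFB arrays lay below its vehicle arrays.

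Of the kinases and checkpoint genes, Aurkb, the kinase that corrects spindle attachments, stood at 73.8, 50.6 and 94.8 in the vehicle arrays, at 42.6, 32.0 and 37.7 after DNFB and at 52.3, 89.9 and 62.2 after BAC. Its DNFB arrays lay below all others and under the 40th percentile, with a fitted change of -0.71 ± 0.35 (limma adjusted p = 0.209). Aurka, Plk1 and Birc5 changed by between -0.18 and 0.12 against the vehicle. Bub1b exceeded the filter in only 3 arrays, and its change of -0.67 ± 0.60 after BAC has the widest error among the members. Bub1 was below the filter in all 9 arrays. Cdc45, Bub1b and Aurkb, 3 of the 36 tested members, would not have passed the filter without the arrays of 1 group, and 24 members exceeded the filter in all 9 arrays.

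In the fit of every probe set, 63 of the 86 member probe sets were tested. Against the vehicle, 2 were higher and 3 lower after DNFB (4.63% and 5.81% of all 29987 tested probe sets) and 0 higher and 3 lower after BAC (4.91% and 5.25%). Between the compounds 5 were higher after DNFB and 0 lower (1.95% and 3%). Several probe sets end in _x_at or _s_at, a mark of probes that can match more than one transcript, among them those that stand for Mcm7, Mcm5, Fen1 and Gins2.

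Across the 36 tested members, the median difference from the vehicle mean was -0.10, 0.06 and 0.08 for vehicle replicates 1 to 3, 0.02, 0.07 and -0.04 for DNFB and -0.30, -0.30 and -0.24 for BAC, on the log2(signal + 16) scale. The BAC arrays lay below the other 6.

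A further 155 cell cycle genes outside the 40 were set beside them, of which 151 had a probe set and 142 were tested. After DNFB 9 were higher and 7 lower, after BAC 5 and 6, and between the compounds 6 were higher after DNFB and 2 lower. These are 11.3%, 7.75% and 5.63% of 142, beside 13.8%, 14.2% and 6.8% of all tested genes, with medians of 0.02, -0.07 and 0.08. In the list of 18 tested genes that control cyclin-dependent kinases, 1 was higher and 5 lower after DNFB (33.3%, beside 13.8% of all genes) and 2 higher and 3 lower after BAC (27.8%, beside 14.2%). Each of the other 9 lists held at most 2 called genes after either compound. In small lists these shares also exceeded those of all genes. They were 2 of 7 nucleotide synthesis genes after BAC (28.6%) and 1 of 7 after DNFB (14.3%). For the anaphase-promoting complex and mitotic exit they were 2 of 8 after DNFB (25%). Of 21 spindle and cytokinesis genes limma called 0, with 1 and 3 at an unadjusted p under 0.05. Myc, a transcription factor that drives growth, changed by 1.32 after DNFB and 1.96 after BAC (limma adjusted p of 5.71e-06 and 8.73e-08) and Cdkn1a, the p21 inhibitor of cyclin-dependent kinases, by 0.78 and 0.62 (p of 0.000513 and 0.00332). Cdkn1b, the p27 inhibitor, fell by 0.96 and 0.94 on the log2 scale, called after both compounds by limma. Cdkn2d, an inhibitor of Cdk4 and Cdk6, was higher after BAC (1.12, limma adjusted p = 5.26e-05) and lower after DNFB than after BAC (-0.90), while its relative Cdkn2c was higher after DNFB than after BAC (0.51). Cdk6 (-0.80) was lower after DNFB by limma.

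Timeless, of the fork protection complex, was higher after DNFB (1.21, limma adjusted p = 0.032), at 161, 181 and 150 against 21.6, 98.7 and 92.2. Top1, which relaxes DNA ahead of the fork, was higher after both (1.07 and 0.46) and 0.61 higher after DNFB than after BAC. Orc6, of the origin recognition complex, was higher after DNFB than after BAC (0.59, limma adjusted p = 0.0268), and Rpa1, which coats single-stranded DNA, and Dut, which removes dUTP, were lower after BAC (-0.36 and -0.67). Shmt1, of one-carbon metabolism, was higher after both (0.53 and 0.73), and Mdm2, which restrains p53, after DNFB (0.48). Of mitotic genes, Ttk (-0.76), a checkpoint kinase, was lower after DNFB, Ube2s (0.76), an elongating enzyme of the anaphase-promoting complex, was higher after DNFB, and the phosphatase gene Cdc14b was lower after both (-0.62 and -0.66). Zwint at the kinetochore (0.67) and Ncapg2 of condensin (0.74) were higher after DNFB, and Kif23, a motor of cytokinesis, was higher after DNFB than after BAC (0.82, limma adjusted p = 0.0266).

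**Figure D5:**
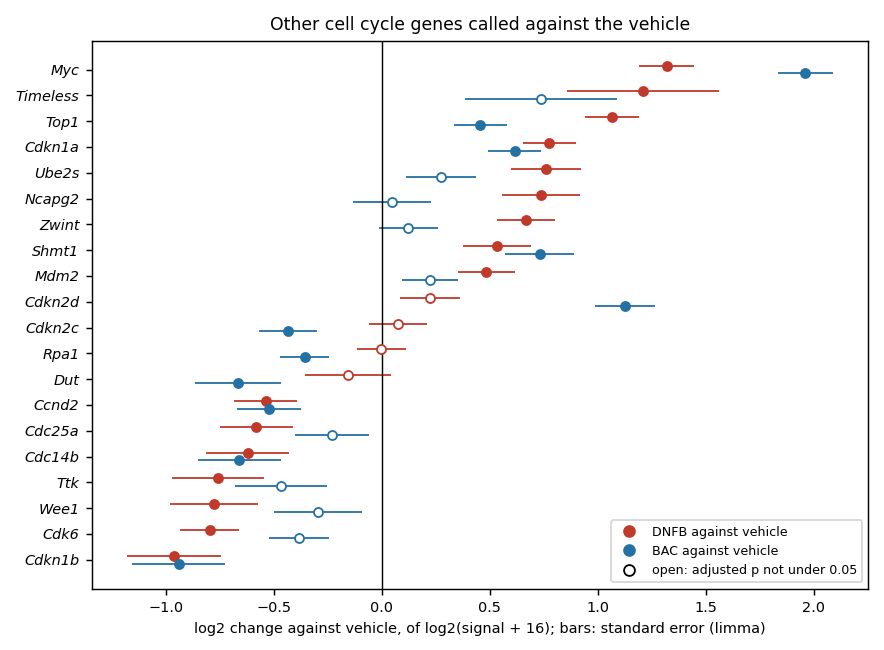
Log2 change of log2(signal + 16) against the vehicle, with the limma standard error, for the 20 other cell cycle genes called after either compound; filled points have an adjusted p under 0.05. Of these 20, 7 are called in the same direction after both, Myc with the largest changes to the right and Cdkn1b to the left.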

How the data were processed

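Per the labels, total RNA of ear skin was labelled with a 3' kit and hybridised to Affymetrix arrays. The authors deposited linear intensities, for which the submitters' processing notes name MAS5 and Affymetrix Expression Console; no source used here gives versions or settings. Of 45101 probe sets, 34958 had 1 gene symbol in the platform annotation, 932 several and 9211 none, and 64 controls were left out. Each gene was represented by its brightest probe set (mean log2 over 9 arrays). Genes above the 40th percentile in at least 3 arrays were tested, on log2(signal + 16), which understates changes of dim genes. One model with a mean per group was fitted in limma 3.58.1 (R 4.3.3; lmFit, eBayes with trend, two-sided), with Benjamini-Hochberg adjustment over 14122 genes and a threshold of 0.05. A second fit took each of 29987 probe sets as a feature. The procedure was tested on simulated data. An exact permutation test of 3 against 3 arrays was not run. Members and lists were chosen with earlier results of these data known. Called members are named with every array, the rest by value or range; of other cell cycle genes, up to 3 per list and comparison with the largest called changes are named. Alternatives covered the pseudocount, filter, centring, quantile normalization, probe-set averaging, trend, replicate block, groups in the fit and each array left out. Probe sets without the filter, the motifs and the printed promoters were chosen after values were seen.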

Additional observations from a re-analysis of the deposited data

How the results depend on the processing

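Over 108 pairs of member and comparison and 19 alternatives, 9 pairs were called as reported, 91 were called under no setting and 8 only under an alternative. Cdt1 and Mcm7 between the compounds, Fen1 and Pcna after DNFB and Mcm7 after BAC were called under all 19. Gins2 after BAC ran from -1.60 to 0.11 with 1 array left out and reversed (0.11) without vehicle replicate 2, where its other probe set stood for the gene. With genes as the mean of their probe sets, 2 members were lower after DNFB, Fen1 and Rrm2. Members lower after BAC numbered 4 with a pseudocount of 64, 5 with each array centred on its median and 4 with only the 2 groups in the fit; the cause was not tested. Leaving out 1 array gave 1 to 4 members lower after BAC (1 without vehicle replicate 2, 4 without DNFB replicate 1 or BAC replicate 1), and 0 to 1 lower in DNFB against BAC (Fen1, without BAC replicate 2). All genes called without the trend numbered 1202 in place of 1955 after DNFB and 402 in place of 961 between the compounds. Leaving out 1 array gave 1254 to 1927 after DNFB (1280 without vehicle replicate 1, 1254 without 3), 1231 to 2149 in place of 2009 after BAC (1231 without vehicle replicate 1) and 515 to 998 between the compounds (602 and 565 without DNFB replicate 2 and 3, 515 without BAC replicate 2). Same-numbered arrays deviated together (r over 0.1) in 1 of 9 pairs, with r from -0.122 to 0.153. These correlations cannot show whether same-numbered arrays came from the same mouse. With the replicate block, 1874, 1939 and 860 genes were called, Fen1 after BAC was called (limma adjusted p = 0.0387) and Pcna between the compounds was not (limma adjusted p = 0.054). Signal near or under the filter limits 12 tested members, which exceeded it in fewer than 9 arrays. These are Gins1, Gins2, Cdc45, Ccne1, Ccne2, Ccnb2, Aurka, Aurkb, Plk1, Bub1b, Ube2c and Kif11. It also limits Cdc6, Bub1, Tyms and the dimmer Ccne1 probe set.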
